A study of Saccharomyces cerevisiae with 6 samples.

Results

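The RNA polymerases of budding yeast (Saccharomyces cerevisiae) are assembled from protein subunits encoded by 31 genes, and the RNA levels of all 31 were compared between cells with mutant and wild-type histone H3. The genes were found by symbol in the array's platform annotation: a probe set counted when it listed exactly 1 gene named RPA, RPB or RPC with a number, RPO21, RPO26, RPO31 or RET1. That gave 37 probe sets, of 9275 without controls, and 31 genes, of 5656 listed alone on a probe set. Each gene was read from its brightest probe set. By the enzyme they belong to, 7 genes are specific to polymerase I, 7 to polymerase II and 10 to polymerase III, and 7 encode subunits shared by 2 or 3 of the enzymes.

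The mutant group was 3 arrays from yeast in which lysines 4, 36 and 79 of histone H3 had been changed to arginine. It was set against 3 arrays from the matched yeast strain with wild-type histone H3. Both groups grew in selective galactose medium and then for 6 h in selective glucose medium. Per the series design, wild-type H3 is switched off in glucose in the mutant group. The mutant form then becomes the only source of H3 in those cells. The arrays measure total RNA from replicate cultures and neither H3 protein nor its methylation. The labels name no strain background, plasmid or mating type, so any such difference between the groups cannot be told apart from the lysines.

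Polymerase I makes the large ribosomal RNA precursor, polymerase II makes messenger RNAs, and polymerase III makes transfer RNAs, the 5S ribosomal RNA and other short RNAs. Each enzyme is built on a pair of large catalytic subunits, surrounded by an assembly platform, a stalk and peripheral subunits, and a set of small subunits common to all the enzymes. Lysines 4, 36 and 79 of H3 are methylated by the enzymes Set1, Set2 and Dot1, and the first 2 of these are known to act together with elongating polymerase II.

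Levels are array signals scaled to a 2% trimmed mean of 500 on each array. Differences are mutant minus wild type of log2(signal + 16), which understates changes of dim probe sets, with a limma fit over 6808 probe sets and p-values adjusted over all of them. The log2 signals of pairs of arrays correlated at 0.964 to 0.983 within the mutant and at 0.985 to 0.989 within the wild type. Between the groups they correlated at 0.961 to 0.981, which overlapped the range within the mutant. The array annotation lists the H3 genes HHT1 and HHT2 together: of their 2 tested probe sets, 1 fell to 33.3% of the wild-type mean in the mutant (limma adjusted p = 0.0013), and the other, brighter one was at 93.1% (adjusted p = 0.648). Signals of different probe sets are not comparable as levels. In such bulk RNA, fewer cells with a transcript and less of it per cell cannot be told apart.

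No polymerase subunit gene was called different between mutant and wild type, and at each gene's brightest probe set the 95% interval of the difference lay within 2-fold. All 31 passed the filter on low signal. At an adjusted p under 0.05, 0 were higher and 0 lower, against 0.896% of all tested probe sets called higher and 1.35% called lower. The smallest adjusted p was 0.175, for RPB3. Unadjusted p-values fell under 0.05 for 3 of the 31, or 9.68%, against 19.6% of all probe sets. The differences ran from -0.38 for RPB7 to 0.31 for RPC82, with a median of -0.03 beside 0.02 over all probe sets, and 13 were positive and 18 negative. Their SD across the genes was 0.18, beside a median SE of 0.14 for a single gene. Over all probe sets the SD of the differences was 0.33 and the median SE 0.16.

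The 95% intervals, not adjusted for the number of genes, reached down to a 1.73-fold lower level (RPC10) and up to a 1.78-fold higher level (RPC82). They lay within 2-fold for 31 of 31 subunit genes and for 91.4% of all tested probe sets. Within 1.5-fold lay 25 of the 31, or 80.6%, and 52.6% of all probe sets. The remaining 6 were RPB3, RPB7, RPB11, RPC17, RPC82 and RPC10. Dimmer probe sets of RPA190, described further on, had wider intervals, down to a 4.40-fold lower level (-2.14 in log2). These bounds hold on the scale in which each array has the same trimmed mean. With the intensities as deposited, where each mutant array carries a further factor below 1, the median of all probe sets was -0.22 and that of the subunit genes -0.28. On that scale 30 of the 31 differences were negative and RPB3 and RPC17 were called lower, at -0.59 (limma adjusted p = 0.037) and -0.57 (adjusted p = 0.0485). There, 30 intervals lay within 2-fold, and that of RPC10 reached a 2.13-fold lower level.

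**Figure D1:**
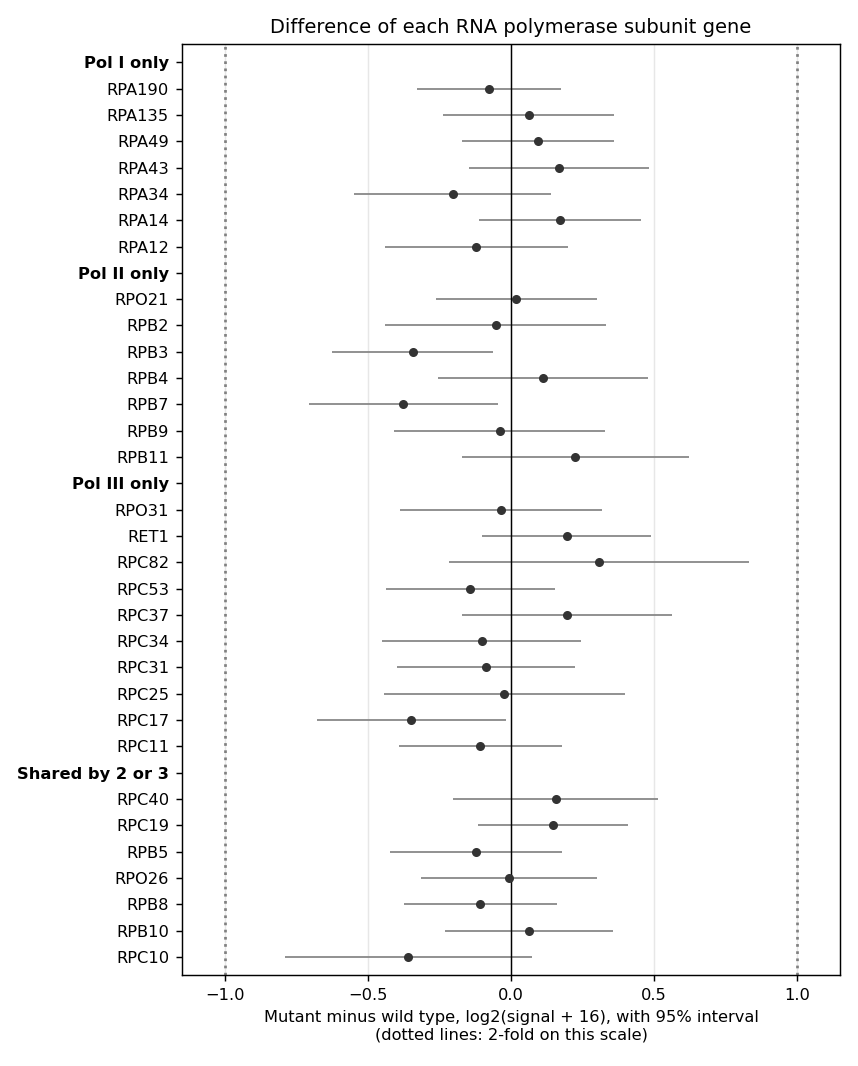
Difference of each subunit gene, mutant minus wild type, in log2(signal + 16) on the x axis, with its unadjusted 95% interval, for 3 arrays per group. The genes are grouped by polymerase, the dotted lines mark 2-fold, and all 31 intervals lie between them.

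The 2 largest subunits of each enzyme form its active site, and the differences of these 6 genes lay between -0.08 and 0.19. RPA190, the largest subunit of polymerase I, had signals of 1835, 1795 and 1888 in the mutant, against 1947, 1837 and 2036 in the wild type. RPA135, its catalytic partner, had 1788, 2274 and 2136 in the mutant, against 1895, 1863 and 2165 in the wild type. The groups overlapped for both genes, with differences of -0.08 (95% interval -0.33 to 0.18) and 0.06 (-0.24 to 0.36).

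RPO21 encodes the largest subunit of polymerase II, whose repetitive C-terminal tail is phosphorylated during transcription and binds the H3 lysine 36 methyltransferase Set2. Its signals were 1617, 1878 and 1950 in the mutant, against 1841, 1649 and 1872 in the wild type, a difference of 0.02 (95% interval -0.26 to 0.30). RPB2, the partner that completes the active site, had 1364, 1046 and 1677 in the mutant, against 1522, 1327 and 1325 in the wild type. Mutant replicate 2 was the lowest and mutant replicate 3 the highest of the 6 RPB2 values, and the difference was -0.05 (SE 0.17).

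RPO31, the largest subunit of polymerase III, had signals of 383.6, 322.2 and 472.5 in the mutant, against 405.2, 385.9 and 402.2 in the wild type. The wild-type values lay within the spread of the mutant ones, and the difference was -0.03 (95% interval -0.39 to 0.32). RET1, its partner, had 1395, 1665 and 1747 in the mutant, against 1486, 1318 and 1379 in the wild type. In 2 mutant arrays RET1 was above every wild-type array and in the other within them, a difference of 0.19 (SE 0.13, limma adjusted p = 0.45).

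These 6 are also the longest of the 31 genes, all over 3000 bases in the gene table. Among 464 tested genes of that length the median difference was 0.11, 66.8% were positive, and 13 were called higher and 1 lower. Of the 6 subunit genes, 3 were positive, 0 were called, and their median was -0.007. Across the 31 genes, which share the same 6 arrays, the difference and the log2 gene length correlated at Pearson's r = 0.22 and Spearman's rho = 0.19.

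Among the genes specific to polymerase I, the median difference was 0.06, with 4 of 7 positive and 0 called. RPA34 and RPA49 encode a dimer that aids initiation and elongation. RPA34 had signals of 1213, 1005 and 825.9 in the mutant, against 1202, 1135 and 1135 in the wild type. Mutant replicate 1 was the highest of the 6 and the other mutant arrays the lowest, and the difference was -0.20 (SE 0.15, limma adjusted p = 0.498). RPA49 differed by 0.09.

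RPA14 and RPA43 form the stalk of polymerase I, where RPA43 meets the initiation factor Rrn3. RPA14 had 820.5, 972.7 and 947.1 in the mutant, against 822.1, 784.2 and 816.6 in the wild type, which overlapped through mutant replicate 1. Its difference of 0.17 (SE 0.13, limma adjusted p = 0.49) was close to that of RPA43, 0.17 (SE 0.14). RPA12, a small subunit needed for cleavage of the nascent RNA, differed by -0.12.

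The genes specific to polymerase II had a median difference of -0.04, with 3 of 7 positive, and held 2 of the 3 subunit genes whose groups did not overlap. RPB7, a stalk subunit that contacts the emerging RNA, had signals of 692.5, 885.8 and 641.3 in the mutant, against 920.3, 976.0 and 972.8 in the wild type. All mutant arrays were below all wild-type arrays, with a difference of -0.38 (SE 0.15, limma adjusted p = 0.198). RPB3, a subunit of the assembly platform, had 456.3, 488.0 and 443.9 in the mutant, against 592.7, 563.1 and 619.1 in the wild type. Here too every mutant value was below every wild-type value, and the difference was -0.34 (SE 0.13, limma adjusted p = 0.175).

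Over all subunit genes, 3 had every mutant array below every wild-type array, or 9.68%, against 11.5% of all probe sets tested. In the other direction the count was 0, against 14.3% of all probe sets. Of the remaining polymerase II genes, RPB11, the platform partner of RPB3, differed by 0.23 (SE 0.18) and RPB4, the stalk partner of RPB7, by 0.11 (SE 0.16). RPB9, which has a part in start site choice and fidelity, differed by -0.04 (SE 0.17).

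**Figure D2:**
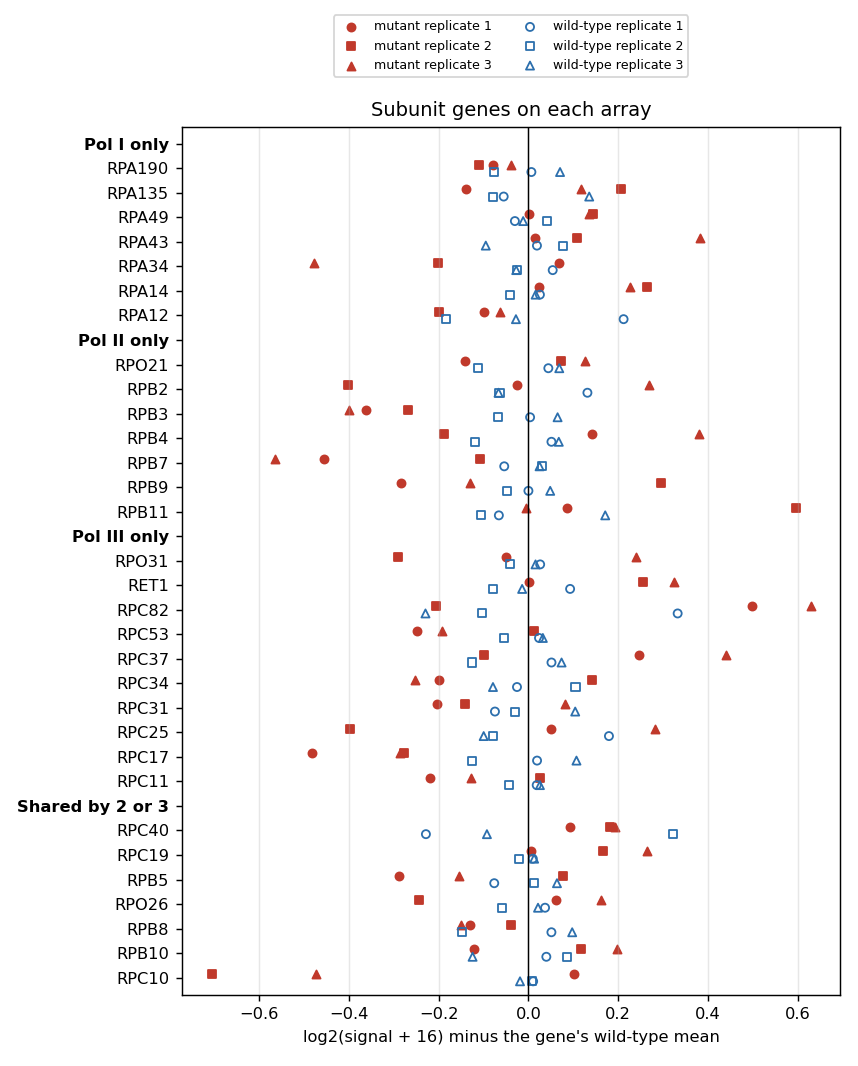
Value of each subunit gene on each of the 6 arrays, as log2(signal + 16) minus the gene's wild-type mean on the x axis, with filled red symbols for the 3 mutant arrays and open blue symbols for the 3 wild-type arrays. The groups separate for RPB3, RPB7 and RPC17, all lower in the mutant, and overlap for the other genes.

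The genes specific to polymerase III had a median difference of -0.06, with 3 of 10 positive, and a median of 0.017 without mutant replicate 2. RPC17, a stalk subunit, was read by the dimmest of the 31 probe sets, with signals of 97.7, 115.2 and 114.3 in the mutant, against 145.0, 129.6 and 155.1 in the wild type. The groups did not overlap, and the difference was -0.35 (SE 0.15, limma adjusted p = 0.23). RPC25, its stalk partner, differed by -0.02 (SE 0.19).

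RPC82, RPC34 and RPC31 form a subcomplex that acts in promoter opening. RPC82 had 512.8, 308.5 and 562.6 in the mutant, against 455.3, 332.6 and 303.3 in the wild type. Both groups were widely spread, so that its difference of 0.31, the highest of the 31, had an SE of 0.23 (limma adjusted p = 0.501). RPC34 differed by -0.10 and RPC31 by -0.09. RPC37 and RPC53, a dimer with roles in initiation and termination, differed by 0.20 and -0.14, and RPC11, needed for RNA cleavage and termination, by -0.11.

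The shared subunit genes had a median difference of -0.006, with 3 of 7 positive. RPC40 and RPC19 form the assembly platform of polymerases I and III. RPC40 had signals of 727.6, 775.4 and 781.5 in the mutant, against 579.3, 855.3 and 638.1 in the wild type, where the mutant values lay within the wild-type spread. The differences were 0.16 (SE 0.16) for RPC40 and 0.15 (SE 0.12) for RPC19.

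RPB5, RPO26, RPB8, RPB10 and RPC10 encode the 5 small subunits found in all the enzymes. RPC10 had 1126, 636.3 and 750.4 in the mutant, against 1056, 1054 and 1034 in the wild type. Mutant replicate 1 was above every wild-type array and the other mutant arrays well below, for a difference of -0.36 (SE 0.19, limma adjusted p = 0.336). Without mutant replicate 1 it was -0.59 (limma adjusted p = 0.0999). The other 4 differed by -0.12 (RPB5), -0.11 (RPB8), -0.006 (RPO26) and 0.06 (RPB10).

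The median of each polymerase group was also taken array by array. The median deviation of the polymerase III genes from their wild-type means was -0.12, -0.12 and 0.16 in the mutant arrays, against 0.03, -0.07 and 0.02 in the wild-type arrays. For the polymerase I genes it was 0.001, 0.11 and 0.12 in the mutant, against 0.02, -0.04 and -0.01 in the wild type. The polymerase II genes gave -0.14, -0.11 and -0.005 in the mutant, against 0.004, -0.07 and 0.07 in the wild type, and the shared genes 0.005, 0.08 and 0.16 against 0.01, 0.008 and 0.01. The mutant and wild-type arrays overlapped in all 4 groups, and no test was made of these medians.

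**Figure D3:**
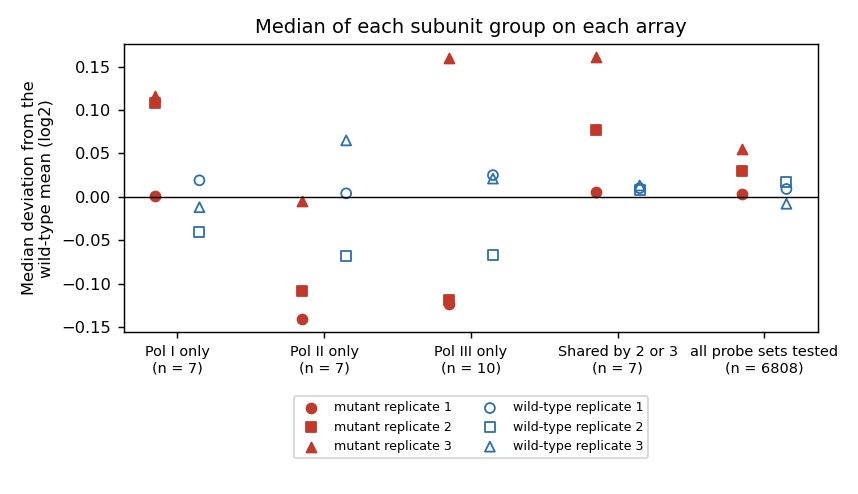
Median deviation of each group of subunit genes from the wild-type mean on each array, in log2(signal + 16) on the y axis, with filled red symbols for mutant and open blue symbols for wild-type arrays. For the polymerase III genes the mutant arrays ran from -0.12 to 0.16. The median of all probe sets tested, at the right, is held near 0 by the scaling of the arrays.

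Replicate values were wider apart in the mutant. The SD of the log2 values was larger over the mutant arrays than over the wild-type arrays for 26 of the 31 genes, or 83.9%, against 68.1% of all probe sets tested. Its median was 0.18 in the mutant and 0.09 in the wild type for the subunit genes, and 0.20 and 0.13 over all probe sets. Among the mutant arrays, replicate 1 was the lowest for 15 of the 31 genes and the highest for 2, and replicate 3 was the highest for 16 and the lowest for 6. Over all probe sets replicate 1 was the lowest for 35.8% and the highest for 20.5%, and replicate 3 the highest for 41.8% and the lowest for 30.3%.

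RPA190 is the 1 subunit gene with several probe sets, 7 in number, and they disagreed. Its brightest, given above, differed by -0.08. One was too dim to test. The other 5 tested probe sets all had lower means in the mutant, with differences of -0.48, -0.56, -0.45, -0.63 and -1.32 in order of falling brightness and adjusted p from 0.097 to 0.287. For the dimmest of these the signals were 6.1 to 52.5 in the mutant, against 57.7 to 105.0 in the wild type, without overlap. The second brightest had 803.5, 466.9 and 650.2 in the mutant, against 1151, 874.7 and 676.8 in the wild type, with overlap. Mutant replicate 2 was the lowest array of all 6 at 4 of the 5. With the mean of all its probe sets in place of the brightest, RPA190 differed by -0.56 (limma adjusted p = 0.167), a larger difference than that of any other subunit gene. The sources used here do not say which stretch of the gene each probe set covers.

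**Figure D4:**
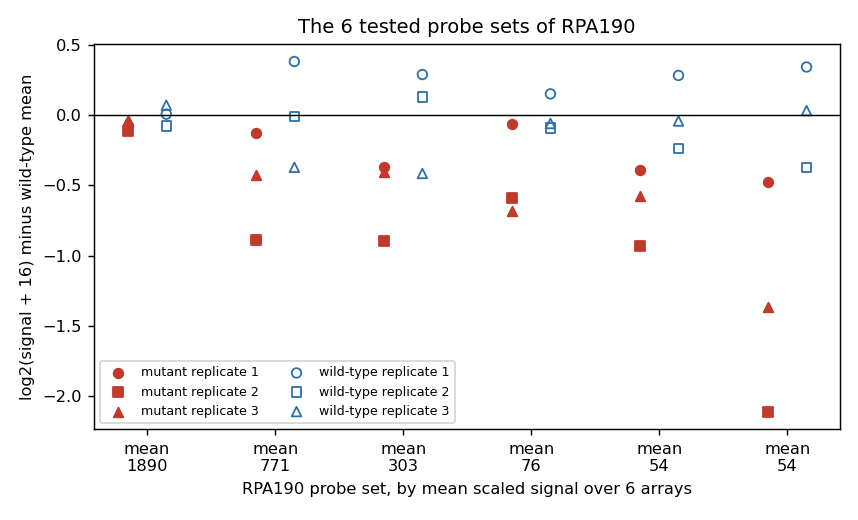
The 6 tested probe sets annotated to RPA190, ordered by mean scaled signal on the x axis, with each array's log2(signal + 16) minus the wild-type mean on the y axis, for 3 mutant (filled red) and 3 wild-type (open blue) arrays. The brightest probe set shows nearly the same values in both groups. The others have lower means in the mutant, down to a difference of -1.32, though at some of them the groups overlap.

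Subunits that bind each other as partners were then compared by the change of one relative to the other, in 11 pairs picked with their values known. With 3 arrays a side, 0.1 is the smallest p that a two-sided exact permutation test allows. RPB3 relative to RPB11 reached it, with a log2 deviation of -0.45, -0.87 and -0.40 in the mutant arrays, against 0.07, 0.04 and -0.11 in the wild-type arrays. The difference was -0.57, lower in 3 of 3 mutant arrays than in any wild-type array, and its exact p of 0.1 was 0.55 after Benjamini-Hochberg adjustment over the 11 pairs. No other pair separated the groups. Among single probe sets, 11.5% were lower and 14.3% higher without overlap. As the pairs were picked with their values known, the exact p-values only describe them and lend no support to a difference. RPB7 relative to RPB4 differed by -0.49, with -0.60, 0.08 and -0.94 in the mutant, against -0.11, 0.15 and -0.04 in the wild type (exact p = 0.3). In the polymerase III pairs RPC82 with RPC34, RPC37 with RPC53 and RPC25 with RPC17, mutant replicates 1 and 3 were above every wild-type array. Mutant replicate 2 was below every wild-type array for the first 2 of these pairs and within them for the third. The platform pair RPC40 and RPC19 had a mean relative difference of 0.01, over wild-type arrays that ran from -0.24 to 0.34. For the stalk pair RPA43 and RPA14 it was -0.003, over mutant arrays that ran from -0.16 to 0.16.

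**Figure D5:**
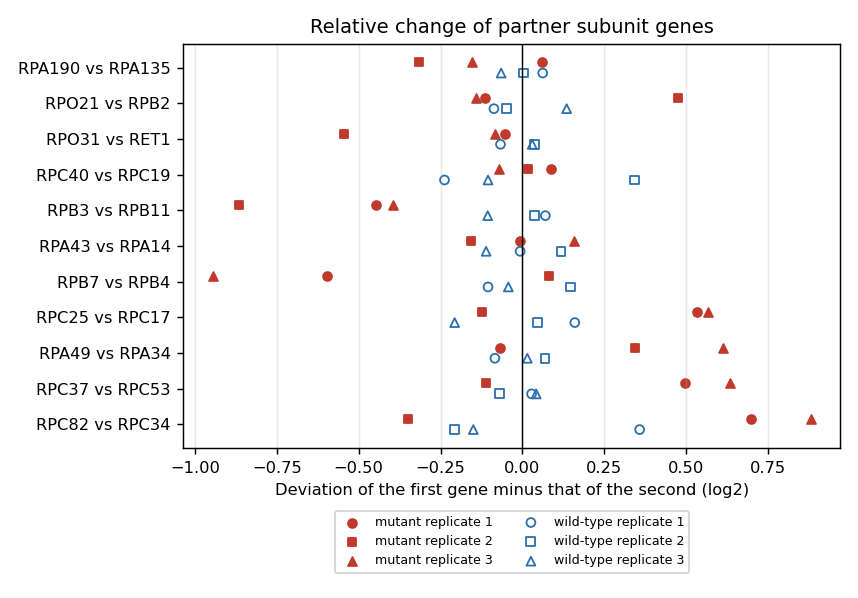
Log2 deviation of the first gene minus that of the second for 11 pairs of partner subunits on the x axis, with filled red symbols for mutant and open blue symbols for wild-type arrays. Of these pairs, picked with their values known, only RPB3 relative to RPB11 separates the groups.

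Factors that work with the polymerases were listed as well. Of 10 polymerase I initiation factors, 9 were tested and 0 called in the limma fit, with a median difference of -0.03. An unadjusted p under 0.05 was found for 3 of the 9, or 33.3%, against 19.6% of all probe sets. RRN11, of the core factor, had 108.6, 141.9 and 114.3 in the mutant, against 72.7, 96.9 and 61.0 in the wild type (difference 0.58, limma adjusted p = 0.135). RRN5, of the upstream activating factor, differed by -0.52 (adjusted p = 0.148), and these 2 genes separated the groups in opposite directions, as did 14.3% (higher) and 11.5% (lower) of all probe sets. Of the 10 polymerase III factors 0 were called, 1 of them (10.0%) with an unadjusted p under 0.05, with a median of 0.07. MAF1, the repressor of polymerase III, had 90.0, 30.3 and 96.5 in the mutant, against 115.5, 128.4 and 117.1 in the wild type. All mutant arrays were lower, replicate 2 most, and the difference was -0.73 (SE 0.30, limma adjusted p = 0.222). BDP1, a subunit of the initiation factor TFIIIB, differed by 0.45 (adjusted p = 0.34).

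Of the 18 general initiation factors of polymerase II, 0 were called and the median was 0.006. An unadjusted p under 0.05 was found for 4, or 22.2%, close to the 19.6% of all probe sets. The smallest adjusted p belonged to CCL1, the cyclin of the kinase that phosphorylates the tail of RPO21, and to the TFIIH helicase gene SSL2. CCL1 had 227.3, 272.1 and 322.3 in the mutant, against 167.7, 198.6 and 202.7 in the wild type, a difference of 0.49 (limma adjusted p = 0.147). SSL2 differed by 0.37 (adjusted p = 0.177). In Mediator, the coactivator that bridges regulators and polymerase II, 24 of 25 genes were tested, with a median of 0.02, 0 called higher and 1 lower, where 0.896% and 1.35% of all probe sets were called. An unadjusted p under 0.05 was found for 8 of the 24, or 33.3%, against 19.6% of all probe sets. Every mutant array was below every wild-type array for 5 genes (20.8%, against 11.5%) and above for 4 (16.7%, against 14.3%). The called gene was SRB2, a subunit of the head module. It had 388.4, 341.2 and 302.9 in the mutant, against 619.3, 586.1 and 667.9 in the wild type, and fell by 0.84 (SE 0.14, limma adjusted p = 0.0197). SRB2 was no longer called when mutant replicate 3 was left out (adjusted p = 0.051), nor without wild-type replicate 1 (0.076), 2 (0.060) or 3 (0.097). ROX3, another Mediator subunit, differed by 0.43 (adjusted p = 0.159). Among 9 factors for assembly and nuclear import of the polymerases 0 were called, 2 of them (22.2%) with an unadjusted p under 0.05, with a median of 0.003. RTP1, of the import pathway, just missed the threshold, with 275.0, 311.7 and 375.6 in the mutant, against 176.1, 215.5 and 151.0 in the wild type (difference 0.78, limma adjusted p = 0.0527). It was called under 5 other settings, array weights among them (adjusted p = 0.0248). With each array left out in turn it was not called (adjusted p from 0.052 to 0.195). Nor was it on the deposited scale (0.071) or with no filter on low signal (0.087). GPN2, also of assembly, differed by 0.48 (adjusted p = 0.106).

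Probe sets for products of polymerases I and III were on the array too. The 5S ribosomal RNA gene RDN5-1, made by polymerase III and present in near-identical copies, had 9805, 11974 and 10478 in the mutant at its brighter probe set, against 6587, 4770 and 6504 in the wild type. Its signal rose by 0.86 there (limma adjusted p = 0.0193) and by 1.51 at the other (adjusted p = 0.0073). The first call was lost without mutant replicate 1 (0.075) or 3 (0.064) and on the deposited scale (0.065), and the second without mutant replicate 1 (0.059). A copy named RDN5-3 differed by 1.22 (adjusted p = 0.060). Of the other polymerase III products, SNR6, the spliceosomal U6 RNA, differed by 0.51 (adjusted p = 0.196), the guide RNA SNR52 by 0.11 and RPR1, the RNA of RNase P, by -0.05. With RDN5-1 and RDN5-3 counted separately, 4 of the 5 products tested (80%) were higher without overlap, against 14.3% of all probe sets. An unadjusted limma p under 0.05 was found for 3 of the 5 (60%), against 19.6% of all probe sets. The polymerase III genes themselves had, as given, a median of -0.06. RDN25-1, within the polymerase I transcript, had 391.7, 372.3 and 315.0 in the mutant at its tested probe set, against 213.3, 146.5 and 201.5 in the wild type. Its signal rose by 0.90 (limma adjusted p = 0.029). This call was lost without any 1 of 5 arrays, all but mutant replicate 2 (0.051 to 0.107). It was also lost under 4 other settings, up to 0.293 with the mean of its probe sets. The other probe set of RDN25-1, too dim to test at a mean signal of 33.9, was at 84.6% of the wild-type mean, with overlap. RDN37-1, the whole precursor, differed by -0.07 at its brightest probe set and by -0.30 to 0.67 over its 5 tested probe sets, none of them called. RDN18-1, also within the polymerase I transcript, was too dim to test, with a mean signal of 6.6. Probe sets of these repeated genes share sequence, so the copies may not be measured separately. Whether these signals follow the amounts of the ribosomal RNAs was not tested.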

How the data were processed

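Total RNA of 6 yeast cultures, 3 mutant and 3 wild type, was measured on Affymetrix arrays. The deposited values are linear probe set intensities, made by the authors with MAS5, as the submitters' processing notes record without a version. The trimmed means of the deposited mutant arrays were 0.888, 0.868 and 0.767 of the wild-type mean. No source used here explains these factors.

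The 60 control probe sets were left out, the arrays were brought to a common 2% trimmed mean of 500, and probe sets with a mean of at least 50 were tested, 6808 in all. limma 3.58.1 (R 4.3.3, lmFit and eBayes with an intensity trend) was fitted to log2(signal + 16) with Benjamini-Hochberg adjustment. A call is an adjusted p under 0.05. Exactly 1 gene was listed for 6504 probe sets, and symbols were updated through a gene table of assembly R64. The number of arrays limits the precision. On simulated data of this comparison (6808 probe sets), 100% of changes of 2, 91.0% of changes of 1 and 24.2% of changes of 0.5 on the log2 scale were called, with 6 false calls among 150.

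The members and lists were chosen with earlier results of these data known. Full values are given for the 6 largest subunits and the 2 largest differences in each of the 4 groups. From the other lists, they are given for called genes and, in lists without a call, for the gene with the smallest adjusted p. Up to 2 genes of the smallest adjusted p a list were named. RPA190's other probe sets, the partner pairs and further genes of the product lists were chosen after their values were seen. The check on length used gene length, not the protein length first intended, and the intended promoter motif counts were not made because no promoter sequences were used here. Same-numbered mutant and wild-type arrays deviated together at correlations of 0.125, 0.157 and 0.042, and differently numbered ones at -0.131 to 0.048. The labels name no pairing, and the main fit did not treat the numbers as pairs. A fit with the replicate number as a block is given below.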

Additional observations from a re-analysis of the deposited data

How the results depend on the processing

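The number of subunit genes called stayed at 0 under each setting tried but 1, the intensities as deposited, where 2 were lower. That scaling gave 31 probe sets higher and 370 lower over the array, in place of 61 and 92. Its group medians were -0.19 (polymerase I), -0.28 (II), -0.30 (III) and -0.26 (shared), beside -0.22 for all probe sets. With that shift the signs of 12 genes turned: RPA135 (-0.19), RPA49 (-0.16), RPA43 (-0.079), RPA14 (-0.077), RPO21 (-0.23), RPB4 (-0.14), RPB11 (-0.021), RET1 (-0.056), RPC37 (-0.045), RPC40 (-0.091), RPC19 (-0.11) and RPB10 (-0.19). Quantile normalization turned RPO21 (-0.006). Array weights turned RPA135 (-0.06), RPO21 (-0.087), RPC25 (0.007), RPO26 (0.024) and RPB10 (-0.013), and removal of the length trend turned RPA135 (-0.035) and RPO21 (-0.094). The polymerase I median was -0.060 with array weights and -0.035 without the length trend. Leaving out each array in turn, it ran from -0.011 to 0.14, the polymerase II median from -0.064 to 0.083, the polymerase III median from -0.11 to 0.017 and the shared median from -0.085 to 0.038, so that each of the 4 had both signs. Over the same settings RPB9 ran from -0.21 to 0.083, RPA135 from -0.011 to 0.16, RPO21 from -0.037 to 0.10, RPB2 from -0.21 to 0.12, RPO31 from -0.17 to 0.095, RPC25 from -0.17 to 0.17, RPO26 from -0.090 to 0.11, RPB4 from -0.024 to 0.26 and RPB10 from -0.002 to 0.16. None of these differences was called. The smallest adjusted p of any subunit gene without 1 array was 0.0535 (RPB7, without mutant replicate 2). With the replicate number as a block, 0 subunit genes were called, and over the array 108 probe sets were higher and 147 lower. Mutant replicate 3 did not correlate best with its own number. Median scaling, offsets of 1 and 64, no intensity trend, the mean of a gene's probe sets, no filter and a filter at 200, which left 29 of the 31 genes, changed no sign. The causes were not tested. With 1 array left out, the counts over the array ran from 13 (mutant replicate 1) to 124 (mutant replicate 2) higher and from 23 (wild-type replicate 1) to 140 (mutant replicate 2) lower, and were 184 and 206 with array weights and 33 and 54 with no filter.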
